A study of Mus musculus with 9 samples.

Results

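The genes described here encode the proteins of the cytosolic ribosome, measured in whole mouse embryos at 9.5 days post coitum on Affymetrix arrays. They were chosen by name: every probe set annotated to exactly 1 gene symbol of the form Rps or Rpl followed by a number, or to Rpsa, Rplp0, Rplp1 or Rplp2. This gave 48 genes measured by 100 probe sets, out of 12393 genes with a symbol of their own and 22690 probe sets on the array. Of the 48 genes, 20 encode small-subunit proteins, 20 encode large-subunit proteins, 2 encode proteins of the ribosomal stalk (Rplp0 and Rplp2) and 6 are paralogs of a standard ribosomal protein gene (Rps27l, Rps4l, Rpl22l1, Rpl39l, Rpl3l and Rpl7l1). A further 102 probe sets carried several symbols with a ribosomal protein gene among them and are not named here. For the same reason Rpl5, Rpl10 and Rpl24 are not among the 48 genes.

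The 9 arrays fall into 5 genotypes. There were 2 arrays of embryos homozygous for the targeted allele Notch1tm1Con (Notch1 null) and 1 array with Notch1tm1Con and a wild-type allele (Notch1 heterozygous). A further 2 were of wild-type embryos (+/+). Another 2 were of embryos carrying Dll3neo and a wild-type allele (Dll3 heterozygous), and 2 of embryos homozygous for Dll3neo (Dll3 null). Notch1 is a receptor and Dll3 a divergent ligand of the Notch pathway, which patterns the somites and the early nervous system. Both alleles were carried in the germ line, so every cell of an embryo had the same genotype. The labels name the C57BL/6J strain for 1 Notch1 null array only and do not say whether replicates were separate litters or pooled embryos, so the p-values below reflect only how far single arrays differ, a difference that may be technical.

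Ribosomal proteins are assembled with ribosomal RNA in the nucleolus into the small subunit, which reads the mRNA, and the large subunit, which joins the amino acids. Their mRNAs are among the most abundant of a growing cell and are typically made in balanced amounts. Most vertebrate ribosomal protein mRNAs begin with a C followed by an unbroken run of C and T (U in the RNA), the 5' terminal oligopyrimidine tract, through which mTOR signalling controls their translation. Loss of 1 copy of such a gene can still give tissue-specific defects in mice and people, among them anaemia and malformed vertebrae.

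The first bases of the transcripts are shown because the tract, where a gene has it, lies there. RefSeq start sites on build GRCm38.p6 were given for 42 of the 48 genes, 50 start sites in all, and windows of 30 bases were read from 10 bases before to 20 bases from the annotated start. The sequences shown are those of genes that the expression results below turn on, with Rps6, Rpl38 and Rps10 as further standard genes that have the tract. Capitals mark the unbroken run of C and T that holds the annotated first base, which is the base in position 11 of each window.
Rpl14 (large subunit), chr9:120571507-120571536, plus strand: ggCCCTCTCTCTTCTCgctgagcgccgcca
Rpl38 (large subunit), chr11:114668570-114668599, plus strand: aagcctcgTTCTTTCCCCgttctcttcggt
Rplp2 (stalk), chr7:141447641-141447670, plus strand: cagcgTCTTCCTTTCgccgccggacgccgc
Rps10 (small subunit), chr17:27635225-27635254, minus strand: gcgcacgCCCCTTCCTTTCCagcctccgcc
Rps6 (small subunit), chr4:86857348-86857377, minus strand: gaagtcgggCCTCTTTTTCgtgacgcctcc
Rpl27 (large subunit), chr11:101442235-101442264, plus strand: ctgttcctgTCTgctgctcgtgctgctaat
Rpl41 (large subunit), chr10:128549149-128549178, minus strand: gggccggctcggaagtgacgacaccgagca
Rps27l (paralog), chr9:66946076-66946105, plus strand: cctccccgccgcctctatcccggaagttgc
Rpl22l1 (paralog), chr3:28805498-28805527, plus strand: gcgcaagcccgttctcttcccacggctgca
Rpl7l1 (paralog), chr17:46782637-46782666, minus strand: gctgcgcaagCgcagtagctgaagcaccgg
The first 5 genes shown are among the 8 standard genes that have a long run from an annotated C. They do not stand for the rest. From its start on, Rpl27 has a run of 2 bases and Rpl41 none, and the 3 paralogs shown have none longer than 1 base.

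Over all start sites, a C at the annotated first base followed by C and T for a run of at least 5 bases stood at 8 of the 50 start sites of the ribosomal protein genes (16.0%). All 8 were among the 43 start sites of standard genes (18.6%), and none of the 7 start sites of paralogs had it. Most standard start sites thus also lacked it as annotated. No test of this difference was made. The same feature stood at 2.40% of the start sites of genes with a symbol on the array and at 0 of 75 start sites of mitochondrial ribosomal protein genes. The rule passed over runs of 16, 7 and 6 bases at Rpl27a, Rpl7a and Rps24, where the annotated first base was T. A run of at least 8 C and T anywhere in the 30-base window, which allows for an annotated start a few bases off, was found at 34.0% of ribosomal protein start sites and at 11.6% of start sites of genes with a symbol on the array. In the 300 bases from 250 before to 50 after the start, searched on both strands, CCGGAAG, which holds the GGAA core that ETS family factors bind, occurred at 42.0% of ribosomal protein start sites, at 34.7% of mitochondrial ribosomal protein start sites and at 14.0% of start sites of genes with a symbol on the array. These matches describe letters in a window and say nothing about binding. RefSeq start sites for Rpl7, Rpl8, Rps14, Rps20, Rps29 and Rps4l were not used here.

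Every deposited value is a ratio: the signal of a probe set on 1 array divided by a reference value of that probe set, which for most probe sets was its median over the 9 arrays. A value of 1.00 is therefore the middle array of that gene, and absolute levels, and levels of different genes, cannot be compared. For 3 of the 100 probe sets (1 each of Rps18, Rps6 and Rpl39l) the median lay below 1. Technical signals differed between the groups. The dap spike-in control ranged from 2.62 to 9.20 on the 4 wild-type and Notch1 null arrays. It was 1.00 on the Notch1 heterozygous array and ranged from 0.36 to 0.40 on the 4 Dll3 arrays. What part this technical difference has in the comparisons below was not tested. Control probe sets for 18S ribosomal RNA averaged 1.30 and 1.65 on the wild-type arrays, 1.63 and 0.955 on the Dll3 null arrays, 0.815 on the Notch1 heterozygous array and between 0.929 and 1.18 on the other 4. The ratio of the 3' to the 5' probe sets of Actb lay between 0.924 and 1.12 on all 9 arrays and was highest on the Notch1 heterozygous array. For Gapdh the same ratio was 1.05 on that array and highest, at 1.12, on wild-type replicate 2. Xist and Eif2s3y gave a female pattern on replicate 1 of each mutant group and a male pattern on the other 5 arrays, both wild-type arrays included. As a check of the genotypes, both Notch1 probe sets read higher in Notch1 null embryos (1.63-fold, adjusted p = 0.0138, and 1.52-fold, adjusted p = 0.142), and the Dll3 probe set was at 0.828 of wild type in Dll3 null embryos with adjusted p = 0.486. Where in the alleles these probe sets lie was not tested, so neither settles a label.

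Ribosomal protein genes were steady across the 9 arrays. The median standard deviation of the log2 ratio over all arrays was 0.10 for the 48 genes and 0.14 for all 12393 genes. It was 0.092 for the 42 standard genes and 0.21 for the 6 paralogs. The difference between the 2 arrays of a group had a median size of 0.046 to 0.069 on the log2 scale over the 48 genes, depending on the group, and of 0.10 to 0.12 over all genes. Of these probe sets, 40% belong to the class named _x_at, which can cross-hybridise, against 6.66% of all probe sets. The least variable gene was Rpl6, a large-subunit protein, whose 9 ratios lay between 0.963 and 1.037. The 5 genes with the largest standard deviation were Rps4l (0.30), Rpl22l1 (0.29), Rpl7l1 (0.22), Rpl27a (0.22) and Rpl14 (0.21), of which the first 3 are paralogs. For Rpl27a the spread lay within groups: its ratio was 1.18 and 0.791 on the Notch1 null arrays and 0.861 and 1.11 on the Dll3 null arrays. These ratios average 2 probe sets that disagreed. On the Notch1 null arrays 1 set read 1.465 and 0.634 and the other 0.955 and 0.986. On the Dll3 null arrays the first read 0.723 and 1.00 and the other 1.026 and 1.238.

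**Figure D1:**
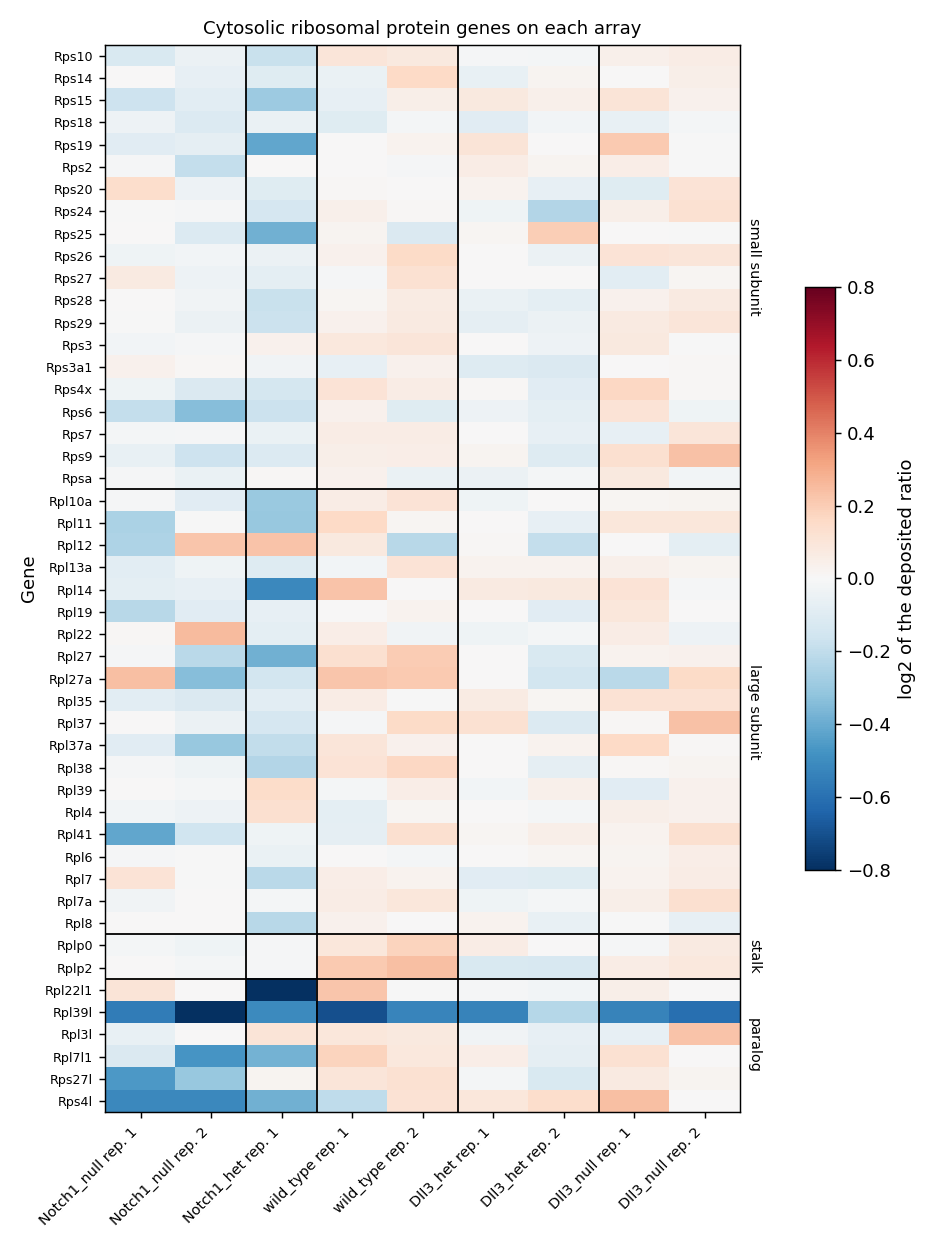
Heat map of the 48 ribosomal protein genes (rows, grouped as small subunit, large subunit, stalk and paralogs) on the 9 arrays (columns, grouped by genotype); colour is the log2 of the deposited ratio, averaged over the probe sets of a gene. Most standard genes stay near 0 on all arrays, the Notch1 heterozygous array is lowest for 21 of the 48 genes, and Rpl39l, whose reference value lies above its median, is below 0 on every array.

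In Notch1 null embryos, 2 of the 48 ribosomal protein genes were lower than in wild type and none was higher (limma, Benjamini-Hochberg adjusted p under 0.05 over all 12393 genes). Both were paralogs, Rps27l and Rps4l, so none of the 42 standard genes passed. Across all genes tested, 8.35% were lower and 3.76% were higher in this comparison, so 2 of 48 lower is below the background share. At an unadjusted p under 0.05, 8 ribosomal protein genes were lower and none was higher, against 16.9% of all genes lower and 8.95% higher.

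Rps27l, a close relative of Rps27 and known as a p53 target, had ratios of 0.726 and 0.809 on the Notch1 null arrays and 1.07 and 1.09 on the wild-type arrays. It read 1.02 on the Notch1 heterozygous array, 0.988 and 0.918 on the Dll3 heterozygous arrays and 1.05 and 1.01 on the Dll3 null arrays. Averaged over its 3 probe sets, both Notch1 null arrays lay below all 7 others. In the only probe set outside the _x_at class they read 0.814 and 0.859, and Dll3 heterozygous replicate 2 read 0.819. On the Dll3 heterozygous arrays the _x_at probe sets disagreed, at 1.204 and 1.106 against 0.831 and 0.855. The gene was 1.41-fold lower in Notch1 null than in wild-type embryos (log2 difference −0.49 ± 0.096 SE, n = 2 against 2, adjusted p = 0.0114 in limma). All 3 of its probe sets gave a similar difference, −0.44, −0.53 and −0.50. The call was lost without Notch1 null replicate 1 (adjusted p = 0.0696), without wild-type replicate 1 (0.0567) and without wild-type replicate 2 (0.0707), with the difference between −0.41 and −0.51 in these 3 fits.

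Rps4l, a relative of Rps4x, had ratios of 0.698 and 0.700 on the Notch1 null arrays, 0.765 on the Notch1 heterozygous array and 0.867 and 1.08 on the wild-type arrays. The Dll3 heterozygous arrays read 1.07 and 1.10 and the Dll3 null arrays 1.18 and 1.00. The 3 Notch1 mutant arrays were thus the 3 lowest. Rps4l was measured by 1 probe set. Notch1 null embryos were 1.39-fold below wild type (log2 difference −0.47 ± 0.12 SE, n = 2 against 2, adjusted p = 0.0380). This call was the less stable of the pair: adjusted p was 0.135 and 0.165 without Notch1 null replicate 1 or 2, 0.226 without wild-type replicate 2, where the difference was −0.31, and 0.0561 without either Dll3 heterozygous array. It also ended under both other scalings, at 0.0508 with each array centred on its median and at 0.124 with quantile normalization.

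Rpl7l1, a relative of Rpl7, came next with ratios of 0.922 and 0.720 on the Notch1 null arrays, 0.769 on the Notch1 heterozygous array, and 1.13 and 1.06 on the wild-type arrays. On the Dll3 heterozygous arrays it read 1.04 and 0.950, and on the Dll3 null arrays 1.09 and 1.00. Averaged over its 2 probe sets, the 3 Notch1 mutant arrays were again the lowest. The difference from wild type was −0.43 ± 0.13 (SE) and did not pass (adjusted p = 0.0564). It passed without Notch1 null replicate 1 (−0.60, adjusted p = 0.0298) and with embryo sex as a covariate (−0.53, 0.0245), a fit in which Rps4l did not (−0.50, 0.0590). Its 2 probe sets disagreed in size: tested singly, one differed by −0.69 (adjusted p = 0.00725) and the other by −0.16 (0.657). The remaining paralogs showed smaller differences in this comparison, −0.11 for the muscle-type Rpl3l, −0.062 for Rpl39l and −0.058 for Rpl22l1, with adjusted p between 0.595 and 0.833.

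**Figure D2:**
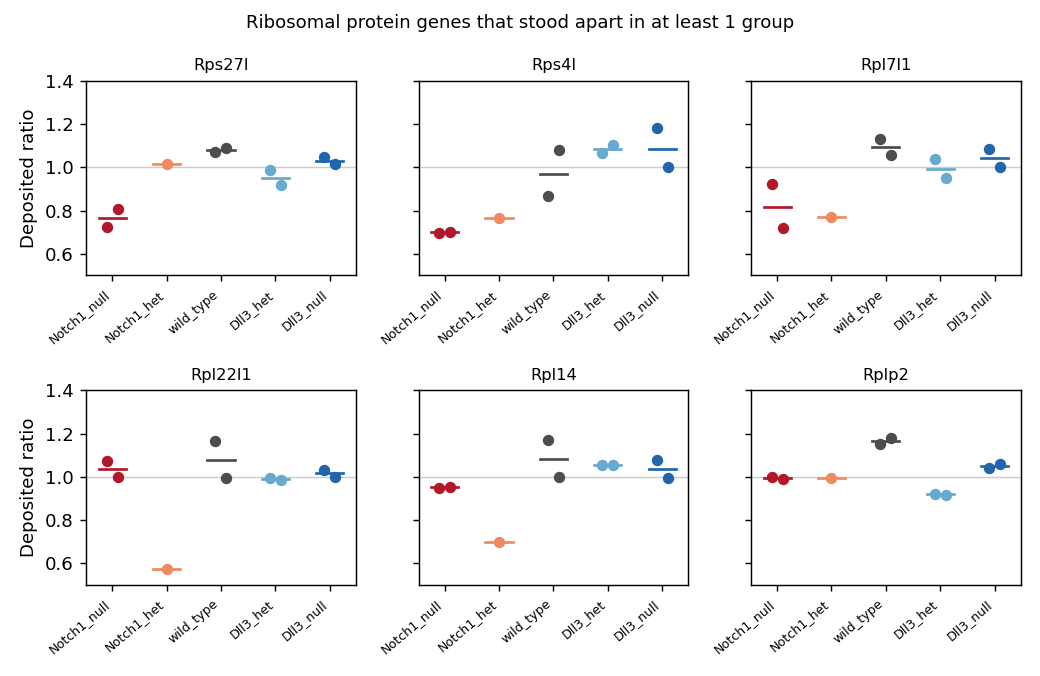
Deposited ratio, averaged over the probe sets of a gene (vertical axis, 1 is the reference value of the gene), of 6 ribosomal protein genes in the 5 genotypes. Each point is 1 array and each bar the geometric mean of the group, with 1 array in the Notch1 heterozygous group. Rps27l is lowest on the 2 Notch1 null arrays, Rps4l and Rpl7l1 on the 3 Notch1 mutant arrays, Rpl22l1 and Rpl14 on the Notch1 heterozygous array, and Rplp2 is highest on the 2 wild-type arrays.

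Differences of the 42 standard genes in Notch1 null embryos were small and mostly below 0, with 36 below 0 and a median of −0.096. Of all 48 ribosomal protein genes, paralogs included, 42 had a difference below 0, against 57.5% of all genes. Their median was −0.10, against −0.034 over all genes. In 30 of the 48 (62.5%) both Notch1 null arrays lay below both wild-type arrays, against 35.6% of all genes. The median was −0.081 for the small subunit and −0.13 for the large subunit with the stalk. Under median centring it was −0.069 over the 48 genes, with 36 below 0, and under quantile normalization −0.063, also with 36 below 0.

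Leaving the paralogs aside, none of the 20 standard small-subunit genes passed in any of the 7 comparisons made. Rps6, whose protein is the best known substrate of S6 kinase downstream of mTOR, had the largest difference of these 20 in Notch1 null embryos. Its ratios were 0.876 and 0.790 on the Notch1 null arrays and 1.02 and 0.934 on the wild-type arrays, a difference of −0.23 ± 0.10 (SE) with adjusted p = 0.181. Rps19, the gene most often mutated in Diamond-Blackfan anaemia, read 0.939 and 0.953 against 1.00 and 1.018 (−0.093, adjusted p = 0.639). The groups did not overlap for either gene, with Rps6 averaged over its 2 probe sets, but neither difference passed. Of the Rps6 probe sets, 1 overlapped, at 0.866 and 0.695 on the Notch1 null and 0.860 and 0.862 on the wild-type arrays. The other read 0.886 and 0.897 against 1.218 and 1.013. Rps20, Rps14, Rps7 and Rpsa, which have known phenotypes when mutated in mice or people, differed by 0.044, −0.083, −0.070 and −0.023, with adjusted p between 0.688 and 0.920. The 95% intervals of these 4 differences lay between −0.31 and 0.29. X-linked Rps4x differed by −0.16 (adjusted p = 0.353).

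In the large subunit and stalk, Rpl41, a very short protein, had the lowest value of the standard genes in Notch1 null embryos. It read 0.749 and 0.895 on the Notch1 null arrays and 0.952 and 1.09 on the wild-type arrays, a difference of −0.32 ± 0.12 (SE) with adjusted p = 0.112. Rpl27 differed by −0.28 (adjusted p = 0.118) and the stalk gene Rplp2 by −0.23 (0.122). Rpl11, which together with Rpl5 restrains the p53 inhibitor Mdm2, differed by −0.22 (0.249). Rpl38, whose loss in Tail short mice alters the axial skeleton and the translation of Hox mRNAs, read 0.993 and 0.978 against 1.08 and 1.12 (−0.16 ± 0.088, adjusted p = 0.294). At the other end stood Rpl22, Rpl12, Rps20, Rps3a1 and Rpl7, with the 5 highest differences, 0.12, 0.058, 0.044, 0.038 and 0.011. For each of these 5 genes the Notch1 null and wild-type arrays overlapped, and the lowest adjusted p was 0.549. The value of Rpl22 averages 2 probe sets that went opposite ways, −0.28 (adjusted p = 0.130) and 0.52 (0.0706), so its direction depends on the probe set.

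The single Notch1 heterozygous array held the lowest ribosomal protein values of the study. It was the lowest of the 9 arrays for 21 of the 48 genes (43.8%), against 12.1% of all genes. The median ratio over the 48 genes was 0.928 on this array and lay between 0.970 and 1.04 on the other 8. Against wild type, 2 ribosomal protein genes were lower, Rpl22l1 and Rpl14, and none was higher, where 1.53% of all genes were lower and 0.718% were higher. At an unadjusted p under 0.05, 12 were lower, against 10.1% of all genes. The median difference was −0.15, against 0.0021 over all genes, and 40 of 48 lay below 0, against 49.6% of all genes. With 1 array in the group there is no replicate check: the fit assumes that this array varies like those of the other groups. Xist and Eif2s3y gave a female pattern on this array and a male pattern on both wild-type arrays.

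Rpl22l1, the paralog of Rpl22, read 0.573 on the Notch1 heterozygous array and between 0.984 and 1.17 on the other 8. It was 1.072 and 1.00 on the Notch1 null arrays and 1.17 and 0.996 on the wild-type arrays. The gene, measured by 1 probe set, stood apart on this array only. It was 1.88-fold lower than in wild type (log2 difference −0.91 ± 0.13 SE, 1 array against 2, adjusted p = 0.0152 in limma) and Notch1 null was 1.81-fold above Notch1 heterozygous (0.85 ± 0.13, adjusted p = 0.0127). The first call was lost without wild-type replicate 1 (adjusted p = 0.0631) and with embryo sex as a covariate (0.0592). The second was lost without Notch1 null replicate 1 (0.0507) or replicate 2 (0.0548). Of the 2 probe sets of Rpl22 itself, one read 0.967 on this array and 0.85 and 0.86 on the Notch1 null arrays, and the other 0.929 here and 1.192 and 1.652 there.

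Rpl14, of the large subunit, read 0.698 on the Notch1 heterozygous array, 1.17 and 1.00 on the wild-type arrays and 0.948 and 0.954 on the Notch1 null arrays. The 4 Dll3 arrays lay between 0.993 and 1.08. Only 1 probe set measured this gene. Notch1 heterozygous was 1.55-fold below wild type (−0.63 ± 0.13 SE, adjusted p = 0.0388). This call was lost without any single array of the other 4 groups, with adjusted p between 0.0560 and 0.126. Below the threshold stood Rpl27 (−0.55, adjusted p = 0.0568), Rpl10a (−0.38, 0.0954), Rps19 (−0.43, 0.0993) and Rpl38 (−0.37, 0.0994). On the same array Rps19 read 0.750 and Rpl38 0.851, each the lowest of the 9. The highest differences belonged to Rpl12 (0.30, adjusted p = 0.463) and Rpl4 (0.16, 0.466).

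The 3 comparisons among the Notch1 and wild-type groups share arrays, so they are not independent of each other. Between Notch1 null and Notch1 heterozygous embryos, 1 ribosomal protein gene was higher (Rpl22l1) and none lower, where 1.13% of all genes were higher and 1.32% lower. The median difference was 0.049, against −0.041 over all genes. Rpl14 differed by 0.45 (adjusted p = 0.0996), and Rps27l by −0.41 (0.105) and Rpl41 by −0.25 (0.394) were the lowest. Over the 48 genes, the median ratio was 1.03 and 1.04 on the wild-type arrays, 0.928 on the heterozygous array and 0.987 and 0.970 on the null arrays.

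No ribosomal protein gene passed in the 3 comparisons of Dll3 heterozygous, Dll3 null and wild-type embryos with each other. Against wild type, 0 of 48 passed in Dll3 heterozygous embryos, where 0.113% of all genes did, and 1 had an unadjusted p under 0.05 (limma), against 14.5% of all genes. In Dll3 null embryos 0 of 48 passed, where 0.00807% of all genes did, and none had an unadjusted p under 0.05, against 9.34% of all genes. Between Dll3 null and Dll3 heterozygous embryos 0 of 48 passed, where 0% of all genes did, and 2 had an unadjusted p under 0.05, Rplp2 and Rps9, against 5.28% of all genes. The median differences were −0.067, 0.0072 and 0.054 in these 3 comparisons, against −0.011, 0.0022 and 0.015 over all genes.

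Rplp2, which forms with Rplp1 the flexible stalk that recruits elongation factors, had the most separated values. It read 0.920 and 0.917 on the Dll3 heterozygous arrays, 1.15 and 1.18 on the wild-type arrays and 1.04 and 1.06 on the Dll3 null arrays. The Notch1 arrays read 1.00, 0.991 and 0.993. The wild-type and both Dll3 groups did not overlap, with wild type highest and Dll3 heterozygous lowest, and the Notch1 heterozygous value lay within the range of the Notch1 null arrays. Dll3 heterozygous embryos differed from wild type by −0.34 ± 0.085 (SE), with adjusted p = 0.115, and Dll3 null embryos differed from Dll3 heterozygous embryos by 0.19 ± 0.085 (adjusted p = 0.940). Its stalk partner Rplp0 differed by −0.10 from wild type in both Dll3 groups (adjusted p = 0.643 and 0.788).

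Among the other genes, Rpl27a, averaged over 2 probe sets with unlike ratios, had the lowest difference from wild type in Dll3 null embryos, −0.25. Its 95% interval ran from −0.65 to 0.16. Rplp2 (−0.15), Rpl27 (−0.13), Rpl38 (−0.12) and Rplp0 (−0.10) followed. The highest were Rps4l (0.17), Rps9 (0.13), Rps19 (0.090), Rpl35 (0.086) and Rps15 (0.079), and no adjusted p of these 10 genes was under 0.643. In Dll3 heterozygous embryos the extremes beside Rplp2 were Rpl27a (−0.29), Rps4l (0.16) and Rpl39l (0.24), with adjusted p between 0.448 and 0.592. Rpl39l had ratios of 0.690 and 0.855 on the Dll3 heterozygous arrays. Between the Dll3 groups Rps9 (0.22) and Rps24 (0.22) were highest, and Rpl39l (−0.19) and Rps25 (−0.11) lowest.

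In 25 of the 48 genes (52.1%) both Dll3 heterozygous arrays lay below both wild-type arrays, against 26.8% of all genes, and in 21 (43.8%) both Dll3 null arrays lay above both Dll3 heterozygous arrays, against 20.7% of all genes. The median ratio over the 48 genes was 1.00 and 0.971 on the Dll3 heterozygous arrays and 1.030 and 1.02 on the Dll3 null arrays, so only replicate 2 of the Dll3 heterozygous arrays lay below 1. The 2 wild-type arrays held the 2 highest of the 9 values in 8 genes (16.7%), Rpl10a, Rpl27, Rpl38, Rplp0, Rplp2, Rps10, Rps27l and Rps3, against 7.1% of all genes.

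The 18S control signal moved with these medians on several arrays. It was highest on wild-type replicate 2 and on Dll3 null replicate 1 (1.65 and 1.63), whose medians over the 48 genes were 1.04 and 1.030, and lowest on the Notch1 heterozygous array (0.815), whose median was 0.928. The 2 Dll3 null arrays had nearly the same median (1.030 and 1.02) at 18S signals of 1.63 and 0.955. With wild-type replicate 2 and Dll3 null replicate 1 both left out, the median difference was −0.085 for Notch1 null against wild type and −0.14 for Notch1 heterozygous against wild type, and no ribosomal protein gene passed in any comparison. That fit has 2 arrays fewer.

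**Figure D3:**
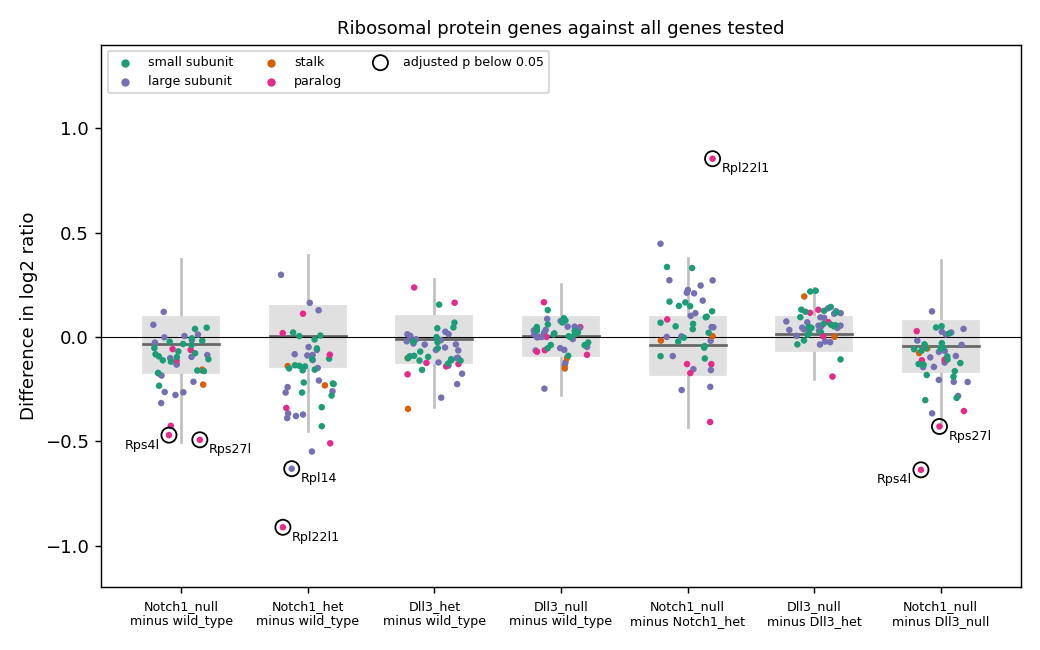
Differences in log2 ratio (vertical axis) of the 48 ribosomal protein genes in the 7 comparisons; each point is 1 gene, coloured by its place in the ribosome, and circled points passed the test. Grey boxes, lines and bars give the quartiles, the range from the 5th to the 95th percentile and the median of all 12393 genes: most ribosomal protein genes lie inside the grey range, and the circled genes are Rps27l, Rps4l, Rpl14 and Rpl22l1.

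Notch1 null and Dll3 null embryos were also set against each other. This is a difference of the 2 mutant means in which wild-type arrays enter only through the shared estimate of spread. The dap control also separates these groups, at 5.26 and 2.62 on the Notch1 null and 0.360 and 0.377 on the Dll3 null arrays. Its part in the differences was not tested. In Notch1 null embryos 2 of 48 ribosomal protein genes were lower and none higher, where 4.87% of all genes were lower and 2.92% higher. They were Rps4l, 1.55-fold lower (−0.64 ± 0.12 SE, adjusted p = 0.0172), and Rps27l, 1.35-fold lower (−0.43 ± 0.096 SE, adjusted p = 0.0272). Both are the paralogs that were lower against wild type, a comparison that shares the Notch1 null arrays. Rps4l no longer passed without Notch1 null replicate 1 (adjusted p = 0.0720) or 2 (0.112) or without Dll3 null replicate 1 (0.115). Rps27l no longer passed without Notch1 null replicate 1 (0.128) or 2 (0.0854), without Dll3 null replicate 1 (0.134) or 2 (0.0746), or under quantile normalization (0.0825), and passed in 14 of 22 alternatives. Its 2 _x_at probe sets differed by −0.53 and −0.48, and the third, the only one left when _x_at and _s_at probe sets were dropped, by −0.28 (adjusted p = 0.158). Rpl41 (−0.37, adjusted p = 0.0864), Rpl7l1 (−0.36, 0.123), Rps6 (−0.30, 0.105) and Rps9 (−0.29, 0.0973) were next, and Rpl22 (0.12, from probe sets at −0.29 and 0.54) and Rps27 (0.051) were highest. The median over the 48 genes was −0.092, against −0.045 over all genes, and 39 of 48 lay below 0, against 60.7% of all genes.

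Genes that work around the ribosome were taken from lists of known members. Mitochondrial ribosomal protein genes, which build the separate ribosome of the mitochondrion, had a median difference of −0.40 in Notch1 null embryos, beside −0.10 for the cytosolic ones. Of 74 genes, 40 were lower than wild type and none higher, where 8.35% of all genes were lower and 3.76% higher. The count was 23, 12, 23 and 17 without Notch1 null replicate 1, Notch1 null replicate 2, wild-type replicate 1 and wild-type replicate 2, while the median stayed between −0.36 and −0.44. Under quantile normalization it was 22 of 74, with a median of −0.33. The median ratio over the 74 genes was 0.822 and 0.799 on the Notch1 null arrays and 1.03 and 1.04 on the wild-type arrays. On the Notch1 heterozygous array it was 0.903. There the median difference from wild type was −0.22, and 66 of the 74 genes lay below 0, against 49.6% of all genes.

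Of 56 measured genes for ribosomal RNA synthesis and ribosome assembly (60 listed), 15 were lower in Notch1 null embryos than in wild type (8.35% of all genes) and none higher, with a median of −0.21. The lowest adjusted p belonged to Polr1e, a subunit of RNA polymerase I (1.88-fold lower, adjusted p = 0.00161), Bop1, a factor for large-subunit maturation (1.75-fold lower, 0.00181), and Bysl, a factor for small-subunit maturation (1.79-fold lower, 0.00309). Without 1 array of the 2 groups the count fell to between 5 and 9, and under quantile normalization it was 8. Of 39 measured translation factors (46 listed), 2 were higher and 7 lower, against 3.76% and 8.35% of all genes, so the number higher is near the background. Eif4b was 1.56-fold higher (adjusted p = 0.00480), Eef1d 1.64-fold lower (0.00369), and Eif6, which keeps the large subunit from joining too early, 1.42-fold lower (0.00667). Without 1 array of the 2 groups between 1 and 3 of them were lower and 1 or 2 higher.

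Of 24 measured genes of mTOR and Myc control (29 listed), 3 were higher and 1 lower in Notch1 null embryos, against 3.76% and 8.35% of all genes. Ddit4, a stress-induced inhibitor of mTOR, was 6.79-fold higher (adjusted p = 0.000516). Sesn3, which also restrains mTOR, was 1.49-fold higher (0.0277). Eif4ebp1, which blocks cap-dependent translation when mTOR is low, was 1.34-fold higher (0.0181). Between 1 and 2 of the 24 were higher without 1 array of the 2 groups, and none was then lower. In Dll3 null embryos against wild type none of the genes of these 4 lists passed, where 0.00807% of all genes did. Fau, which encodes a small-subunit protein outside the naming rule, differed by −0.12 in Notch1 null embryos (adjusted p = 0.561) and by −0.40 on the Notch1 heterozygous array (0.138).

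**Figure D4:**
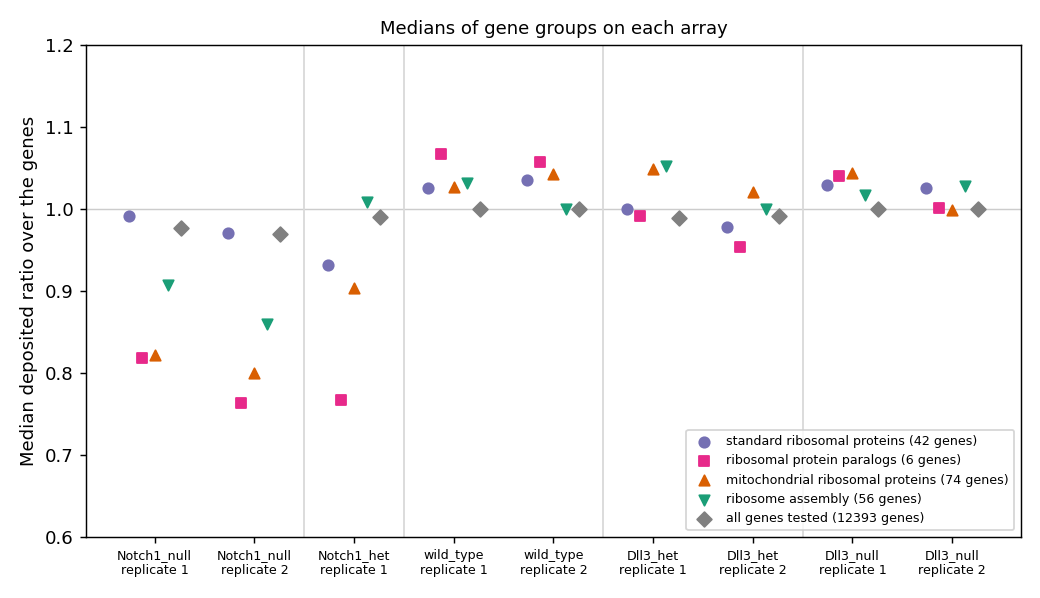
Median deposited ratio (vertical axis) over the genes of 5 groups on each of the 9 arrays (horizontal axis, divided by genotype). Mitochondrial ribosomal protein genes (0.822 and 0.799) and assembly genes (0.906 and 0.860) are low on the Notch1 null arrays, where the standard cytosolic genes read 0.991 and 0.971. The standard genes are lowest, at 0.931, on the Notch1 heterozygous array, where mitochondrial genes read 0.903 and assembly genes 1.01.

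Whole embryos mix many tissues, and in such bulk samples fewer cells of a type and less RNA per cell cannot be told apart. Marker genes of neurons were lower in Notch1 null embryos than in wild type for 8 of 8 genes (median −0.94), somite markers for 4 of 6 (median −0.76), and primitive red cell markers for 0 of 9. In the same comparison 1 of 8 cardiac muscle and 2 of 6 endothelial markers were higher, and 0 of 7 yolk sac and 0 of 4 decidua and trophoblast markers passed. Over all genes, 8.35% were lower and 3.76% were higher in this comparison. Neuron markers also lay below wild type on the single Notch1 heterozygous array (median −0.77, against 0.0021 over all genes). In Dll3 null embryos all 8 lay below 0, against 49.3% of all genes, with a median of −0.41. None of the 8 passed there, where 0.00807% of all genes did. The median ratio of 7 yolk sac and liver endoderm markers ranged from 0.657 to 1.82 over the 9 arrays and differed between arrays of 1 group. The part of tissue makeup in the ribosomal protein values was not tested.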

How the data were processed

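The deposited values are ratios, made by the authors with RMA per the submitters' processing notes (no version stated) and divided per probe set by a reference value: over the 9 arrays the median was exactly 1 for 19847 of 22690 probe sets. Probe sets were named by GEO's platform annotation and matched to RefSeq by gene identifier (48 of 48). Log2 ratios were averaged per gene and fitted with limma 3.58.1 in R 4.3.3, with 5 group means over all 9 arrays (4 residual and 5.64 prior degrees of freedom) and Benjamini-Hochberg adjustment per comparison over 12393 genes, with 64 control probe sets left out. The number of arrays limits the precision. On simulated data for Notch1 null against wild type (12393 genes, 200 changed), 0% of changes of 0.25, 51% of 0.5 and 99.5% of 1 on the log2 scale were called. For the single Notch1 heterozygous array the shares were 0%, 1.5% and 98.5%. In the real Notch1 null comparison 1501 genes passed, which loosens the cutoff on the unadjusted p, so the simulated shares do not carry over to it. Named genes were the members called, the 5 highest and 5 lowest differences in both null groups (2 and 2 elsewhere), the 5 largest standard deviations, the paralogs, members with known phenotypes and the 3 lowest p of each list. Members and lists were chosen with earlier results of these data known. Replicate numbers were not used to pair the arrays. Replicate differences of 2 groups correlated between −0.12 and 0.18, which cannot exclude a shared litter or batch. Replicate 1 had the female pattern in every mutant group, so the replicate block and the sex covariate are nearly the same. Start site sequences come from RefSeq, GRCm38.p6.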

Additional observations from a re-analysis of the deposited data

Results flagged for a closer look

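The 18S ribosomal RNA control probe sets, which no comparison uses, read higher on Dll3 null replicate 1 than on either wild-type array for 2 of the 3 sets. The 3' set gave 1.385 there, against 1.126 and 1.29 on the wild-type arrays, and the middle set gave 2.09, against 1.42 and 1.959. On Dll3 null replicate 2 the same sets read 0.995 and 0.892.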

How the results depend on the processing

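Counts of ribosomal protein genes past the threshold were small, and most moved with the processing. Where probe sets were tested singly, the count given is of the 100 probe sets, not of genes. A gene can then count more than once. For Notch1 null against wild type (2 genes) the count was 4 with probe sets tested singly, 1 with median centring, with quantile normalization, with only the arrays compared, with the probe set of largest spread per gene and with only the 5 wild-type and Notch1 arrays, 0 without both arrays of high 18S signal, and 0 to 2 without 1 array. For Notch1 heterozygous against wild type (2) it was 1 with quantile normalization, with the replicate number as a block and with the 5 arrays, 0 with only the arrays compared, with embryo sex and without both high-18S arrays, 6 at adjusted p under 0.1, and 0 to 1 without 1 array. For Notch1 null against heterozygous (1) it was 0 with only the arrays compared and without both high-18S arrays, 2 at adjusted p under 0.1, and 0 to 1 without 1 array. For Notch1 null against Dll3 null (2) it was 4 with probe sets singly and at adjusted p under 0.1, 1 with quantile normalization and without _x_at and _s_at probe sets, 0 with only the arrays compared and without both high-18S arrays, and 0 to 2 without 1 array. The 3 other comparisons stayed at 0 in all 23 alternatives. The 5-array and high-18S settings were chosen after seeing the data.

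Medians kept their sign except in Dll3 null against wild type (−0.0083 to 0.023). In Notch1 null against wild type the median was −0.069 with centring, −0.063 with quantile normalization and −0.11 to −0.085 without 1 array. In Notch1 null against Dll3 null it was −0.11 with probe sets singly, −0.062 with either scaling and −0.093 to −0.067 without 1 array. In Notch1 heterozygous against wild type it was −0.13 with quantile normalization, −0.18 with sex and −0.20 to −0.14 without 1 array. In Dll3 heterozygous against wild type it was −0.090 without dim probe sets and −0.094 to −0.054 without 1 array. In Notch1 null against heterozygous it was 0.071 with probe sets singly, 0.021 without _x_at and _s_at and 0.030 to 0.052 without 1 array. In Dll3 null against heterozygous it was 0.077 with probe sets singly and 0.044 to 0.082 without 1 array. The causes were not tested.

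With the replicate block, Rps4l in Notch1 null against wild type gave adjusted p = 0.0537 and Rpl7l1 0.0334, and Rpl14 in the heterozygous array gave 0.0515; no other call on a ribosomal protein gene changed. Rps27l in Notch1 null against wild type passed in 19 of 23 alternatives, Rps4l in 10 of 23, and Rpl22l1 and Rpl14 in the heterozygous array in 18 and 8 of 22. Quantile normalization moved the split of all calls from 362 higher and 604 lower to 220 and 228 in Notch1 null against Dll3 null, from 140 and 164 to 36 and 19 in Notch1 null against heterozygous, and from 3 and 11 to 3 and 5 in Dll3 heterozygous against wild type. Depth cannot be given for arrays, and 2 arrays a group limit all tests.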

Other observations

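The 102 probe sets whose annotation lists several symbols with a ribosomal protein gene among them were tested singly, without a gene name. In Notch1 null against wild type 1 was lower and none higher, where 1356 were lower and 783 higher among all probe sets, with a median difference of −0.044, against −0.10 for the 100 probe sets of the 48 named genes and −0.030 for all 22626 probe sets tested. On the Notch1 heterozygous array 7 were lower and 1 higher than wild type, where 400 were lower and 224 higher among all 22626, with a median of −0.14, against −0.16 for the 100 probe sets.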
